A study of Oryza sativa Japonica Group with 8 samples.

Results

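Of 17905 rice genes measured on the arrays, 61 were lower in dark-grown seedlings carrying an active phytochrome B than in dark-grown wild type and were not lowered by red light in wild type. They were chosen by their measured levels, with the probe set of highest mean taken for each gene. The OsYHB dark mean had to lie at least 1 below the wild-type dark mean on the log2 scale, which is a fold of 2, and both OsYHB dark arrays below both wild-type dark arrays. The wild-type red light mean had to lie no more than 0.25 below the wild-type dark mean. The rule gave 65 genes, of which SPX2, JAZ2, PSY3 and CYP701A8 were left out by name, as genes with names starting IAA, ARF, HOX, WRKY or HSP would have been. A further 770 genes were lower in OsYHB darkness in the same way and fall outside the 61, so that 831 genes in all, or 4.64% of the genes measured, met the darkness criteria.

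The seedlings were 5 days old, of the cultivar Nipponbare, and only their above-ground parts were used. The 4 groups, with 2 arrays each, were wild type and Ubi::OsYHB plants kept at 28 °C in the dark, and both genotypes kept at 28 °C under unbroken red light (Rc50) with an irradiance of 50 µmol m-2 s-1. The maize Ubiquitin promoter, which is active in most tissues, drives the transgene, and the plants carrying it are otherwise Nipponbare. Replicate 1 of each OsYHB group is line 1, with 41-fold overexpression, and replicate 2 is line 9, with 23-fold, so the spread within an OsYHB group includes any difference between 2 transgenic lines. The arrays of a group are labelled biological replicates.

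Phytochrome B is a receptor that red light converts to its active form and far-red light or darkness returns to the inactive one. Active phytochrome B enters the nucleus, where it removes or inhibits PIF transcription factors, and the dark-grown, elongated seedling switches to leaf growth and greening. The OsYHB allele is held active without light, and seedlings that carry such an allele look light-grown in darkness.

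The median intensity over all probe sets was 20.4 to 20.9 on the 8 arrays. Green shoot marker genes, 5 in number, had a summed intensity of 20625 to 21881 in wild-type darkness and 42014 to 43884 in the other 3 groups. The sum over 5 root markers was 788.1 to 1069.2 in wild-type darkness and 579.9 to 733.1 elsewhere. Most of it was Lsi1, whose mean log2 was 9.62 in wild-type darkness and 9.24 in OsYHB darkness. In red light Lsi1 was at 8.97 in wild type and 8.89 in OsYHB. A longer root list held 19 genes, of which PHT1-8 is 1 of the 61 and so was chosen as lower in OsYHB darkness. Of its 18 genes outside the 61, limma called 0 lower and 2 higher in OsYHB darkness (median difference 0.08). In wild-type red light 0 were called lower and 4 higher. The sum over 14 seed storage and late embryo markers was 2133.4 to 2945.4 in wild-type darkness and 1277.8 to 2174.9 in wild-type red light. It was 1265.5 to 1341.4 in OsYHB darkness and 1218.7 to 1261.7 in OsYHB red light. These markers differed in direction. From wild-type to OsYHB darkness the mean log2 went from 9.87 to 8.80 in Dhn1, 9.12 to 4.64 in RAB21 and 7.32 to 3.06 in LEA19. The storage genes GLUA-2 (7.95 to 8.44), prolamin (4.21 to 4.45), GLUB-5 (2.31 to 2.92) and GLUB-4 (2.36 to 2.66) rose, while GLUP4, GLUA-1 and GLUA-3 did not. The part of these tissue markers in the differences of the 61 genes was not tested. In whole shoots, fewer cells of a type and less RNA per cell cannot be told apart. Of the root markers, CASP1, Lsi2 and PHT1-6 were dim in every group, with means below a log2 intensity of 4. So were RBCS1 of the green shoot markers and GLUA-1, GLUA-3, GLUB-4 and GLUB-5 of the seed markers. The files hold no detection call, so a dim value is not shown to be above background.

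The difference between OsYHB and wild type in darkness, used for the choice, had a median of -1.23 over the 61 genes and ranged from -5.47 to -1.01. It was at most -2 in 3 genes and at most -1.5 in 14. The other 770 genes had a median of -1.40, and all genes -0.17. The red light difference of wild type had a median of 0.11 and ranged from -0.25 to 3.003, against -1.11 for the 770 genes and -0.10 for all genes. It lay between -0.25 and 0.25 in 41 of the 61 genes, between 0.25 and 1 in 15 and at 1 or above in 5. Both differences are taken from the same wild-type dark arrays.

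**Figure D1:**
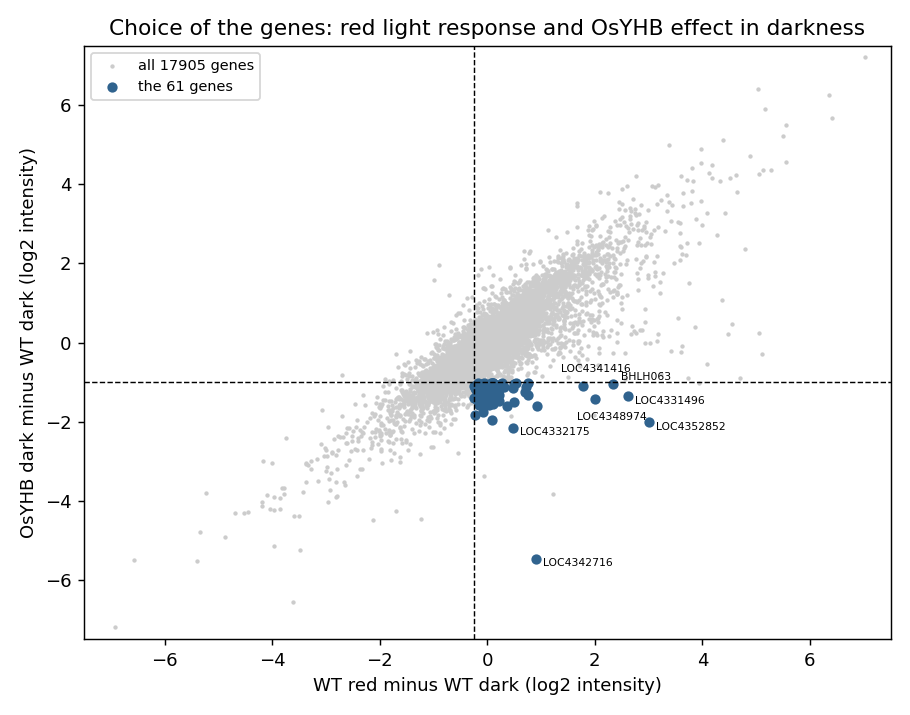
The x axis gives the wild-type red light minus wild-type dark difference and the y axis the OsYHB dark minus wild-type dark difference, both in log2 intensity, for all 17905 genes (grey) and the 61 genes (blue). Dashed lines mark -0.25 and -1, most blue points crowd the corner between them, and LOC4342716 lies far below at -5.47. Grey points in that corner overlap between dark arrays or were left out by name.

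The arrays of wild type and of OsYHB darkness were used for the choice, so their levels are a description. Relative to the wild-type dark mean of each gene, the median was 0.33 and -0.33 in wild-type darkness, 0.31 and -0.07 in wild-type red light, -1.03 (line 1) and -1.40 (line 9) in OsYHB darkness and -0.50 (line 1) and -0.04 (line 9) in OsYHB red light. In OsYHB red light, line 1 lay between the OsYHB dark arrays and the wild-type arrays, and line 9 within the wild-type range.

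**Figure D2:**
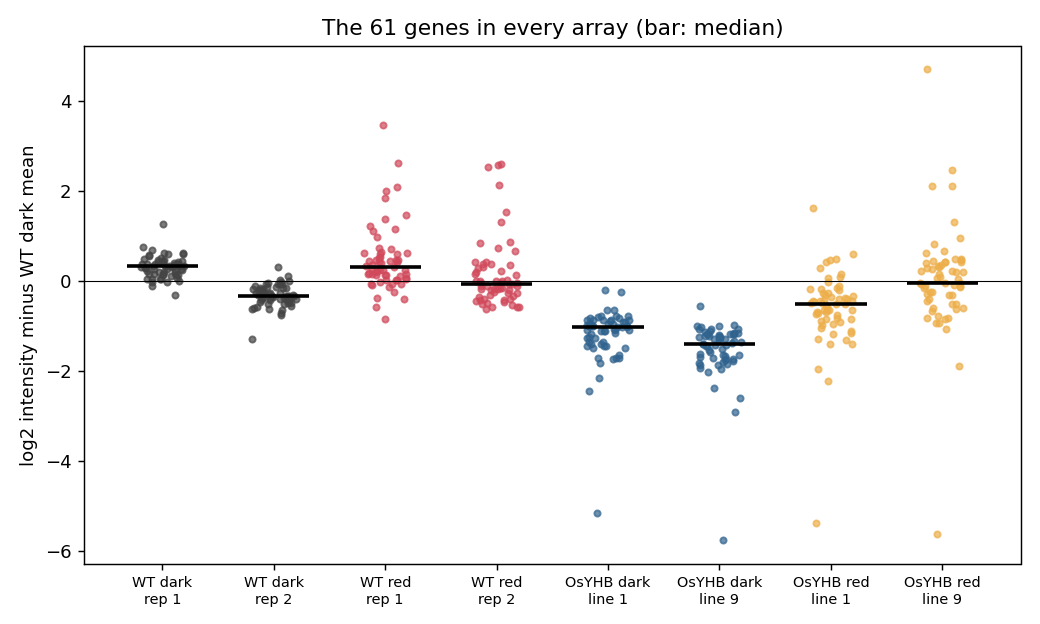
Each point is 1 of the 61 genes on 1 array, as log2 intensity minus that gene's wild-type dark mean, and bars are medians. The OsYHB dark arrays have medians of -1.03 and -1.40, and the OsYHB red light arrays -0.50 (line 1) and -0.04 (line 9).

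A gene name was available for 11 of the 61 genes, and 50 have only a locus number. The named ones are 3 transporters, 2 transcription factors, 3 genes of organ growth or cell wall, and 3 others. The values that follow are log2 intensities on each array.

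MST3 encodes a monosaccharide transporter, which moves hexoses across membranes. Its levels were 10.22 and 9.68 in wild-type darkness, 10.12 and 9.34 in wild-type red light, 8.23 (line 1) and 8.02 (line 9) in OsYHB darkness, and 9.25 (line 1) and 10.26 (line 9) in OsYHB red light. OsYHB darkness lay below every other array, and in OsYHB red light line 1 was below and line 9 above both wild-type red light arrays. The OsYHB minus wild-type difference of MST3 was -1.82 in darkness and 0.03 in red light (SE 0.36).

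COPT1 encodes a copper transporter of the COPT family. Its levels were 8.30 and 7.46 in wild-type darkness, 8.87 and 8.74 in wild-type red light, 6.44 and 6.13 in OsYHB darkness, and 7.25 and 7.57 in OsYHB red light. Red light went with high values in wild type, and OsYHB red light lay below both wild-type red light arrays in either line. The OsYHB difference was -1.60 in darkness and -1.40 in red light (SE 0.26, limma adjusted p = 0.325), so the difference in red light did not pass the test.

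PHT1-8 belongs to the PHT1 family of phosphate transporters. Its levels were 7.45 and 7.33 in wild-type darkness, 7.63 and 7.05 in wild-type red light, 6.43 and 6.32 in OsYHB darkness, and 7.03 and 7.62 in OsYHB red light. Only OsYHB darkness stood apart, with a difference of -1.02 from wild-type darkness, and the other 3 groups overlapped. Its probe set is of a type that can match related transcripts.

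BHLH063 encodes a basic helix-loop-helix transcription factor, and its other listed names, IRO3 and OsIRO2, belong to factors that act in the iron deficiency response. Its levels were 6.42 and 5.96 in wild-type darkness, 8.29 and 8.78 in wild-type red light, 5.18 and 5.12 in OsYHB darkness, and 7.82 and 7.14 in OsYHB red light. Both genotypes had higher values in red light than in darkness, with no overlap, and in either condition OsYHB lay below wild type. The difference between genotypes was -1.04 in darkness and -1.05 in red light (SE 0.26, adjusted p = 0.518).

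MADS58 encodes a MADS-box factor of the kind that specifies floral organs. Its levels were 5.16 and 5.78 in wild-type darkness, 6.08 and 5.85 in wild-type red light, 3.02 (line 1) and 4.91 (line 9) in OsYHB darkness, and 4.16 (line 1) and 6.10 (line 9) in OsYHB red light. Line 1 was below line 9 in both conditions, by 1.89 in darkness and 1.93 in red light. The dark value of line 1 was dim, below a log2 intensity of 4, so the size of the dark gap is uncertain. Line 9 in red light lay just above the highest wild-type array.

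ARGOS is named for a gene that increases organ size in Arabidopsis in response to auxin. Its levels were 7.42 and 6.56 in wild-type darkness, 7.12 and 7.03 in wild-type red light, 6.06 and 5.18 in OsYHB darkness, and 6.55 and 6.75 in OsYHB red light. OsYHB darkness was lowest, with a difference of -1.37 from wild-type darkness. OsYHB red light lay below wild-type red light with no overlap, and that difference of -0.42 (SE 0.33) did not pass the test.

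BC1L9 encodes a COBRA-like protein, of the family in which the rice gene BC1 supports cellulose assembly and the strength of the stem. Its levels were 7.47 and 7.40 in wild-type darkness, 8.66 and 7.72 in wild-type red light, 6.57 and 5.67 in OsYHB darkness, and 8.05 and 8.26 in OsYHB red light. Red light went with higher values in both genotypes, and in red light OsYHB lay within the wild-type range.

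CAD8A encodes a cinnamyl alcohol dehydrogenase, of the family that makes the alcohol precursors of lignin. Its levels were 6.56 and 5.55 in wild-type darkness, 7.44 and 6.20 in wild-type red light, 5.19 and 4.87 in OsYHB darkness, and 6.13 (line 1) and 8.17 (line 9) in OsYHB red light. The lines differed most in red light, where line 9 was above and line 1 below both wild-type arrays.

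CML4 encodes a calmodulin-like protein, a calcium sensor, and was read by a probe set that can match related transcripts. Its levels were 9.72 and 8.47 in wild-type darkness, 9.22 and 8.93 in wild-type red light, 8.28 and 7.65 in OsYHB darkness, and 8.20 and 8.85 in OsYHB red light. The lowest wild-type dark array was only slightly above the highest OsYHB dark array.

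EGY3 belongs to a small family related to site-2 proteases, known in Arabidopsis from the chloroplast. Its levels were 5.55 and 5.41 in wild-type darkness, 4.92 and 6.79 in wild-type red light, 3.75 and 3.98 in OsYHB darkness, and 4.20 and 4.87 in OsYHB red light. OsYHB darkness lay below the wild-type arrays, and the wild-type red light replicates were far apart. The OsYHB dark values were dim, below a log2 intensity of 4, so the size of the difference in darkness is uncertain.

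The entry listed as ARD1 is annotated as a transcribed pseudogene and lists names of unrelated gene kinds, so no role is given to it. Its levels were 7.90 and 7.02 in wild-type darkness, 8.20 and 6.88 in wild-type red light, 6.47 and 4.54 in OsYHB darkness, and 6.70 and 6.79 in OsYHB red light. OsYHB red light lay below the wild-type arrays, and the 2 OsYHB dark lines differed by more than any other pair of replicates.

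**Figure D3:**
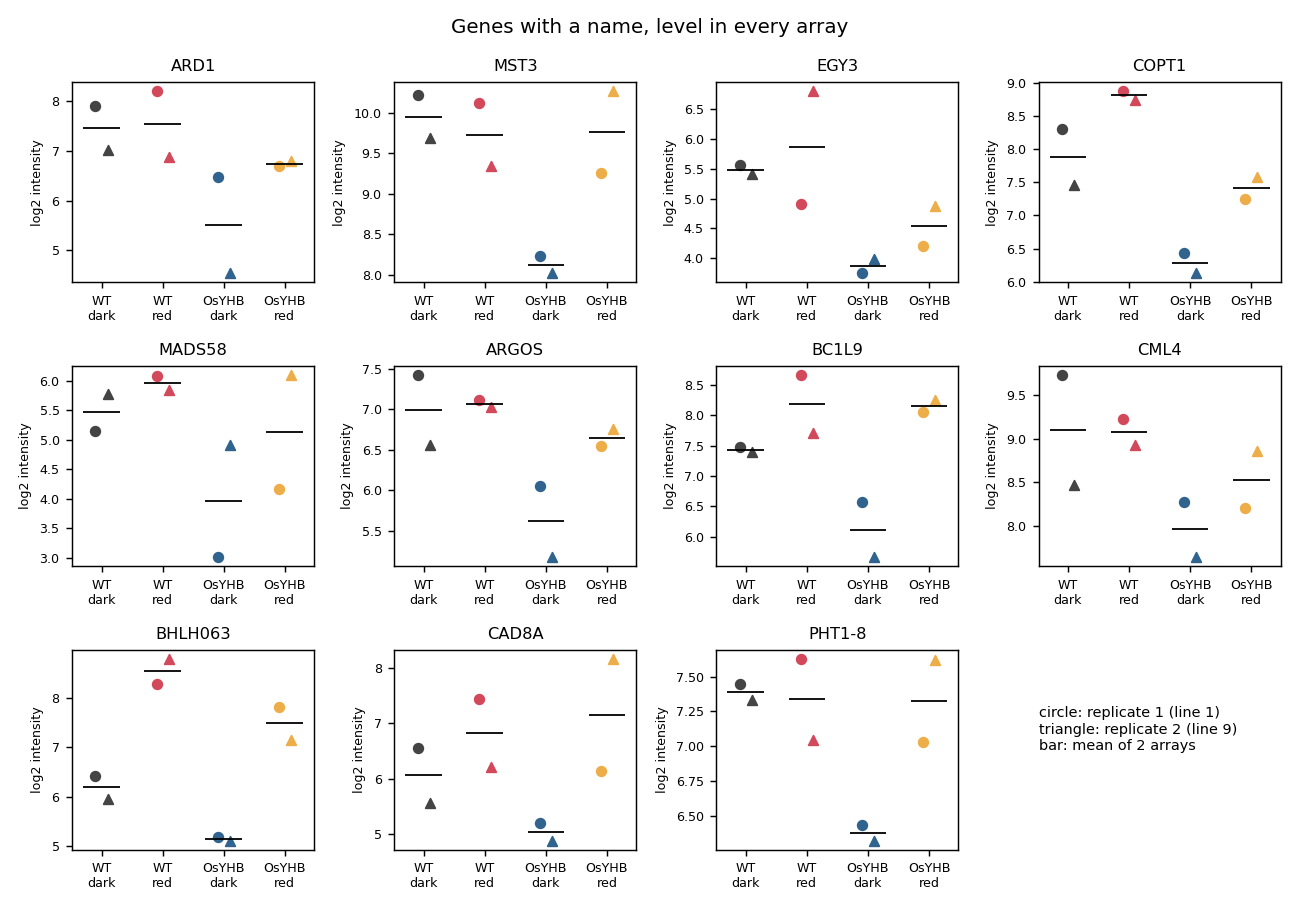
Log2 intensity on each array for the 11 genes with a name, with circles for replicate 1, triangles for replicate 2 (in OsYHB these are line 1 and line 9) and bars for means of 2 arrays. In each panel both OsYHB dark points lie below both wild-type dark points, and MADS58, CAD8A and MST3 show wide gaps between lines in OsYHB red light.

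Related genes were called in either direction or not at all. For genes other than the 61, the comparison of OsYHB with wild type in darkness was tested with limma over all probe sets, and 17.3% of the 17905 genes were called lower and 10.7% higher. Of 7 other PHT1 genes none was called, and of 3 other copper transporter genes 1 was called lower. That gene, COPT5.1 (-0.43, SE 0.12, adjusted p = 0.0477), lost the call whichever array was left out. MST5, the other gene of the MST group, was not called (-0.09, SE 0.13) and was dim, at a mean log2 of 2.32. Also dim were both COPT2 entries (3.26 and 2.89), PHT1-11 (2.74), PHT1-7 (2.22) and PHT1-6 (2.07). Several uncalled genes of the families below were dim as well. A dim gene without a call is not shown to be unchanged.

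Among 30 other MADS-box genes, 1 fell, LOC4325001 (-1.54, SE 0.21), and 3 rose, FDRMADS8 (3.48, SE 0.32), AGL20 (1.17, SE 0.14) and MADS57 (0.67, SE 0.16). Among 22 other calmodulin-like genes, CML11 fell (-1.28, SE 0.14), and CML1 (1.15, SE 0.17) and CML28 (0.77, SE 0.18) rose. CML28 was dim, at means of 2.65 in wild-type darkness and 3.42 in OsYHB darkness, and FDRMADS8 was dim in wild-type darkness (3.63), so neither size is shown to be above background. Of 6 other cinnamyl alcohol dehydrogenase genes, CAD6 (-1.99, SE 0.19) and LOC4328552 (-0.67, SE 0.15) fell, and CAD3 (1.55, SE 0.23) and CAD8C (0.54, SE 0.12) rose. In the COBRA-like family 1 of 4 other genes fell, LOC4347540 (-1.34, SE 0.16). EGY1 (0.75, SE 0.16) and EGY2 (0.75, SE 0.22) were called higher. EGY3 was lower by the choice of the genes, without a test and with dim values in OsYHB darkness. The calls of EGY1, LOC4328552 and CAD8C were lost without wild-type dark replicate 1. Those of EGY1, LOC4328552, CAD8C and MADS57 were lost without either OsYHB dark array, and that of CML28 without the dark array of line 9. EGY2 was lost without any array other than wild-type dark replicate 2, and MADS57 and CML28 also without wild-type dark replicate 2. With only the arrays of both dark groups the calls of COPT5.1, LOC4328552, CAD8C, CML28, EGY1 and EGY2 were lost.

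The named genes fall in 6 of the functional lists, for membrane transport, transcription factors, calcium sensors and kinases, cell wall, phenylpropanoids and auxin. Of their 605 other genes, 116 were called lower and 38 higher in OsYHB darkness, where 17.3% of all genes were lower and 10.7% higher. The count of 116 was 58 with only the arrays of both dark groups, 37 without line 9 and 56 without line 1, and the count of 38 was 21 without line 9. A line left out here means its dark array only, and its red light array stayed in the fit. In wild-type red light 57 were called lower and 44 higher, against 8.13% lower and 8.98% higher over all genes. Without wild-type red light replicate 1 these were 25 and 23, and without replicate 2 they were 21 and 21. The 61 genes include 4 of 171 membrane transport genes (with the ARD1 entry, through another of its listed names), 2 of 183 transcription factor genes, 1 of 110 genes for calcium sensors and kinases, 1 of 108 cell wall genes, 1 of 23 phenylpropanoid genes and 1 of 26 auxin genes. Over all genes the 61 are 0.341%, and nothing is read from these small counts. The lists depend on gene names, which most of the 61 genes lack.

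LOC4342716 had the largest difference in darkness. Its levels were 8.93 and 6.38 in wild-type darkness, 8.81 and 8.32 in wild-type red light, 2.49 and 1.89 in OsYHB darkness, and 2.26 and 2.04 in OsYHB red light. All 4 wild-type arrays were at 6.38 or above and all 4 OsYHB arrays at 2.49 or below, in darkness and in light alike. The OsYHB values are below a log2 intensity of 4, at which values are called dim here, and are not shown to be above background. The OsYHB minus wild-type difference of LOC4342716 in darkness was -5.47, and its exact size depends on those dim values.

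LOC4332175 followed, with 6.38 and 5.87 in wild-type darkness, 6.65 and 6.55 in wild-type red light, 4.43 and 3.52 in OsYHB darkness, and 5.87 (line 1) and 6.81 (line 9) in OsYHB red light. In red light the OsYHB arrays lay on either side of the wild-type arrays. Its probe set, like those of LOC4352852, LOC4339579 and LOC4337383, is of a type that can match related transcripts, as is the case for 6 of the 61 genes.

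The 5 genes with the highest red light difference in wild type were LOC4352852 (3.003), LOC4331496 (2.61), BHLH063 (2.34), LOC4348974 (2.00) and LOC4341416 (1.77). LOC4352852 was at 6.59 and 5.84 in wild-type darkness, 9.68 and 8.76 in wild-type red light, 4.05 and 4.34 in OsYHB darkness, and 6.20 (line 1) and 10.93 (line 9) in OsYHB red light. Line 9 in red light exceeded every wild-type array, whereas line 1 stayed near wild-type darkness.

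LOC4348974 had a like split, at 6.17 and 5.22 in wild-type darkness, 7.56 and 7.83 in wild-type red light, 4.21 and 4.34 in OsYHB darkness, and 4.29 (line 1) and 8.18 (line 9) in OsYHB red light. LOC4341416 was at 7.68 and 7.73 in wild-type darkness, 9.72 and 9.23 in wild-type red light, 7.45 and 5.74 in OsYHB darkness, and 8.12 (line 1) and 9.82 (line 9) in OsYHB red light. In both genes line 1 under red light lay below and line 9 above both wild-type red light arrays.

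LOC4331496, annotated as a long non-coding RNA, did not split by line. It was at 5.33 and 4.66 in wild-type darkness, 7.62 and 7.59 in wild-type red light, 3.91 and 3.36 in OsYHB darkness, and 4.55 and 4.71 in OsYHB red light. Both lines under red light stayed within or below the wild-type dark range, with wild-type red light far above.

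Several other unnamed genes were low in OsYHB darkness alone. LOC4343487 was at 10.05 and 9.65 in wild-type darkness, 10.21 and 9.31 in wild-type red light, 8.70 and 7.47 in OsYHB darkness, and 9.44 and 10.20 in OsYHB red light. LOC4326333 was at 6.05 and 5.72 in wild-type darkness, 6.33 and 5.88 in wild-type red light, 4.63 and 4.19 in OsYHB darkness, and 5.58 and 6.32 in OsYHB red light. In both genes only the OsYHB dark arrays stood below, and the 3 other groups overlapped.

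LOC4345988 was near or below the dim level on most arrays, at 4.12 and 3.73 in wild-type darkness, 3.94 and 4.34 in wild-type red light, 2.93 and 2.29 in OsYHB darkness, and 3.09 (line 1) and 5.24 (line 9) in OsYHB red light. Line 9 in red light was its highest array. LOC4335108 was at 5.64 and 5.66 in wild-type darkness, 5.55 and 5.87 in wild-type red light, 5.46 (line 1) and 3.81 (line 9) in OsYHB darkness, and 5.95 (line 1) and 5.21 (line 9) in OsYHB red light. Its low OsYHB dark mean came from line 9, and line 1 lay just below wild type.

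LOC4333210, by its brightest probe set, was low in OsYHB in both conditions, at 10.04 and 9.51 in wild-type darkness, 9.71 and 10.09 in wild-type red light, 8.39 and 8.80 in OsYHB darkness, and 8.66 and 9.00 in OsYHB red light. LOC9268879 was likewise at 5.24 and 4.02 in wild-type darkness, 5.07 and 4.62 in wild-type red light, 3.63 and 3.23 in OsYHB darkness, and 3.58 and 3.81 in OsYHB red light. In both genes all 4 OsYHB arrays lay below all 4 wild-type arrays, and the red light differences of -1.07 (SE 0.23, adjusted p = 0.457) and -1.15 (SE 0.36, adjusted p = 0.581) did not pass the test. The 3 other probe sets of LOC4333210, with mean log2 of 5.46, 7.62 and 2.85, differed by -0.03, -0.36 and 0.23 in darkness with overlap, and by -0.25, -0.22 and -0.08 in red light.

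LOC4351146 and LOC4351147 are the only neighbouring pair among the 61 genes, on chromosome 11. LOC4351146 was at 7.0 and 6.22 in wild-type darkness, 7.72 and 6.45 in wild-type red light, 5.98 and 4.95 in OsYHB darkness, and 5.80 and 6.81 in OsYHB red light. LOC4351147 was at 6.40 and 4.87 in wild-type darkness, 7.10 and 5.59 in wild-type red light, 4.68 and 4.35 in OsYHB darkness, and 3.67 and 5.04 in OsYHB red light. In both genes replicate 1 exceeded replicate 2 in the wild-type groups and line 9 exceeded line 1 in OsYHB red light. The 61 genes lie on all chromosomes, with 10 on chromosome 3 and 2 each on chromosomes 6 and 9.

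The question left by the rule is whether the genotype difference held in red light. The OsYHB red light arrays were not used for the choice, but the wild-type red light arrays were, through the threshold of -0.25, which favours genes with high wild-type red light values and so lower differences. The median OsYHB minus wild-type difference in red light was -0.32 over the 61 genes, -0.18 over the 770 other genes and -0.00 over all genes. OsYHB was below wild type in 53 of the 61 genes, against 51.0% of all genes. Both OsYHB arrays lay below both wild-type arrays in 26, against 25.8% of all genes, and both above in 1, against 23.2%. A difference of -1 or lower was found in 10, against 0.514%, namely LOC4342716, LOC4331496, LOC4351147, LOC4339579, LOC4348974, COPT1, EGY3, LOC9268879, LOC4333210 and BHLH063. Single arrays decide some of these values. EGY3 was -0.38 without wild-type red light replicate 2, -2.26 without replicate 1 and -0.99 without the red light array of line 1. BHLH063 was -0.71 without the red light array of line 9 and -0.80 without wild-type red light replicate 2. In LOC4348974 line 9 lay above both wild-type red light arrays, so its difference rests on line 1. The difference lay within 0.25 of 0 in 23 of the 61. Over all genes its quartiles were -0.14 and 0.12, so a difference this small was more common there.

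The limma test called 2 of the 61 genes lower in OsYHB red light than in wild-type red light and none higher, against 0.0223% lower and 0.00559% higher over all genes. At an unadjusted p below 0.05 the counts were 16 lower, against 4.8% of all genes, and 0 higher, against 2.7%. LOC4342716 fell by 6.42 on the log2 scale (SE 0.67, adjusted p = 0.0469) and LOC4331496 fell by 2.98 (SE 0.24, adjusted p = 0.0219). The size for LOC4342716 is set against OsYHB values not shown to be above background. Both calls were lost when any of the 4 red light arrays was left out, with an adjusted p from 0.153 to 0.383 for LOC4342716 and from 0.0619 to 0.258 for LOC4331496. The call of LOC4342716 was also lost without either OsYHB dark array (adjusted p = 0.127).

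By adjusted p the next gene was LOC4339579, at 10.22 and 9.59 in wild-type darkness, 9.78 and 9.71 in wild-type red light, 8.20 and 8.49 in OsYHB darkness, and 7.69 and 8.03 in OsYHB red light. All 4 OsYHB arrays lay below all 4 wild-type arrays. Its red light difference was -1.89 (SE 0.22, adjusted p = 0.0687), and that of LOC4351147 was larger in size but less even between arrays, at -1.99 (SE 0.64, adjusted p = 0.589). LOC4350295 had the highest red light difference, 0.48, with 8.51 and 7.31 in wild-type darkness, 8.37 and 7.44 in wild-type red light, 6.26 and 6.89 in OsYHB darkness, and 8.37 and 8.40 in OsYHB red light. Its OsYHB red light arrays lay at the top of the wild-type range.

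**Figure D4:**
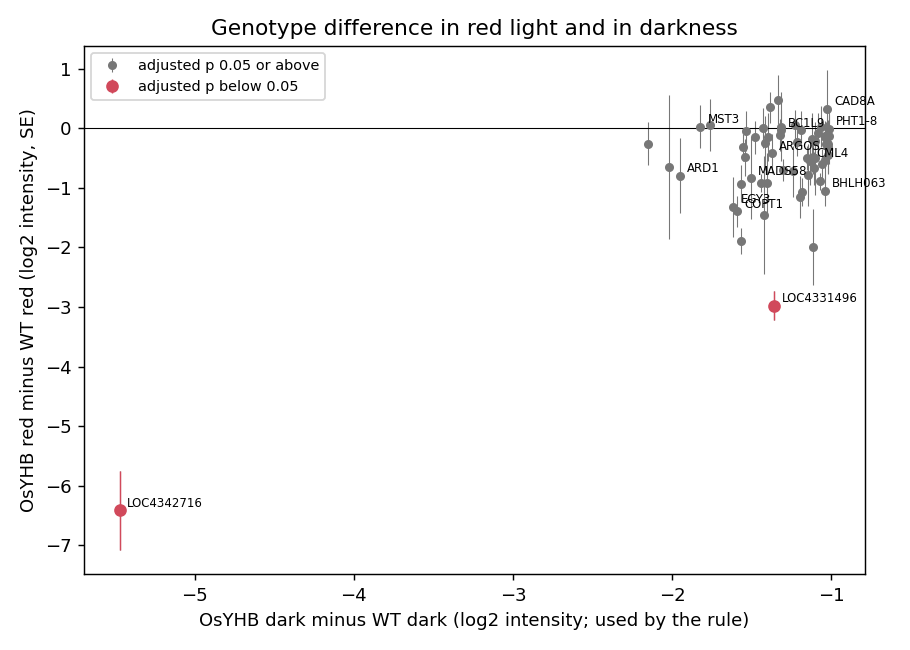
The x axis gives the OsYHB minus wild-type difference in darkness, which chose the genes, and the y axis the same difference in red light with its SE, both in log2 intensity. The called genes LOC4342716 (-6.42) and LOC4331496 (-2.98) lie below the other 59.

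Within OsYHB, red light went with higher levels than darkness. The OsYHB dark arrays were chosen low, so this difference is given as a description. It was above 0 in 58 of the 61 genes, against 57.3% of all genes, with a median of 0.99 against 0.11 for the 770 other genes. It was at least 1 in 29, against 1.32%, and both red light arrays lay above both dark arrays in 48, against 36.3%. The exceptions were LOC4342716 (-0.04), LOC4339579 (-0.48) and LOC4351147 (-0.16).

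The 61 genes also varied between replicates in a common direction. Replicate 1 was above replicate 2 in 57 of the 61 in wild-type darkness, against 53.1% of all genes and 84.0% of the 770 others, with a median difference of 0.66. It was above in 47 in wild-type red light (median difference 0.43, against 54.9% of all genes) and in 47 in OsYHB darkness (0.32, against 54.8%), where it is line 1. In OsYHB red light line 9 was the higher in 52 of the 61, against 53.7% of all genes, with a median of -0.48 for line 1 minus line 9. Of the 770 other genes, replicate 1 was above replicate 2 in 68.2% in wild-type red light, 63.0% in OsYHB darkness and 38.2% in OsYHB red light. The arrays of wild type and of OsYHB darkness were used for the choice, so their replicate counts are a description. All genes are therefore not a neutral comparison for them. What the replicate difference rests on was not tested.

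The lines were compared over both light conditions with limma. The fit has 1 array per line and light, and its 2 residual degrees of freedom come from how the line difference, and the replicate difference of wild type, varied with light. No gene of the 61 was called, against 0.0782% of all genes. At an unadjusted p below 0.05 there were 6, against 4.17% of all genes. MADS58 had the lowest adjusted p, 0.0617, and was called with an intensity trend (0.0487) and with quantile normalization (0.041). In red light 13 of the 61 genes had line 1 below and line 9 above both wild-type arrays, against 6.3% of all genes, and 1 had the reverse, against 3.91%. Line 9 exceeded line 1 by at least 1 in red light in 12, against 1.29%. In darkness line 9 was above line 1 in 14, against 44.6%.

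**Figure D5:**
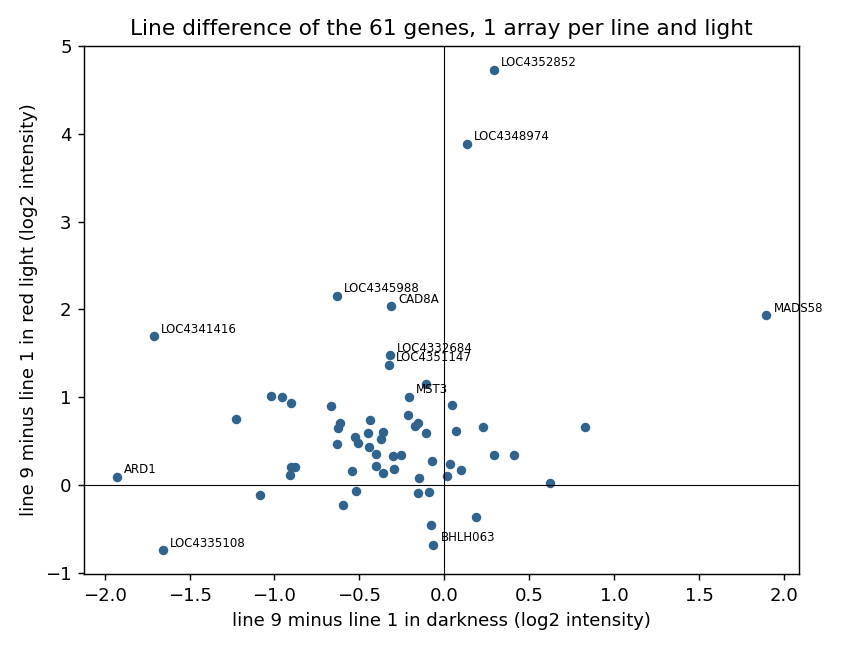
Each point is 1 of the 61 genes, with line 9 minus line 1 in darkness on the x axis and in red light on the y axis, in log2 intensity and from 1 array per line and light. Most points lie to the left of 0 and above it, with LOC4352852 at 4.73 in red light, LOC4348974 at 3.88 and MADS58 high in both.

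The 61 genes were of moderate signal, with a median over arrays of 6.53 on the log2 scale, against 7.94 for all genes, and ranged from 3.02 to 11.44. In 14 of them the OsYHB dark mean was below 4. By annotation 59 are protein-coding, 1 is a transcribed pseudogene (ARD1) and 1 a long non-coding RNA (LOC4331496). Their median gene length was 2144 bases, against 2408.5 for the 770 other genes and 3526 for all genes.

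More than 1 probe set was available for 14 of the 61 genes. Of their 24 other probe sets, 17 were below 0 in the OsYHB dark difference, 12 were lower without overlap and 5 were at -1 or below. Those of BC1L9 (-1.18), CML4 (-1.12) and PHT1-8 (-1.10) were among the 5. For CML4 and PHT1-8 the probe set given differs in name from the one used only by its suffix, so it is no independent reading. Over all genes the OsYHB dark difference had a median of -0.17 and an upper quartile of 0.12. A value below 0 was thus common, and nothing is read from the 17. Shares over all probe sets were not counted for the 12 and the 5, so nothing is read from them either. All these counts come from the dark arrays used for the choice. A further probe set of CML4 (0.19) and of PHT1-8 (0.06), both dim, did not show the difference. The other probe set of the ARD1 entry, with a mean log2 of 6.42 against 6.81 for the one used, gave -0.38 in OsYHB darkness and -0.58 in wild-type red light, so it would not have met the rule.

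Just inside the darkness threshold of -1 lay PHT1-8 (-1.02) and CAD8A (-1.03), and just outside it EIL1 (-0.98) and CLPD1 (-0.97). At the red light threshold of -0.25 the nearest named genes inside were MST3 (-0.22) and PHT1-8 (-0.05), and outside PLA2-III (-0.25, just under it) and TGAL4 (-0.35).

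The make-up of the list depended on the arrays used. Under 13 alternatives to the settings, 4 of the 61 genes stayed in the list every time, namely LOC4332175, LOC4352852, COPT1 and LOC4326333. Whichever of the 8 arrays was left out, 7 stayed, the same 4 with LOC4331496, LOC4345988 and LOC4335831. Without OsYHB dark line 1 the rule gave 105 genes, 58 of them among the 61, and without wild-type dark replicate 1 it gave 43, of which 28 were among the 61.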

How the data were processed

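Total RNA of 8 samples was hybridised to Affymetrix rice arrays. The authors deposited linear intensities, 1 for each probe set in each sample. The submitters' processing notes name RMA, GCOS and limma as tools of the authors without version, role or order, and the background model and scaling steps are not known here. The deposited intensities were taken as already normalized and turned into log2 values with no further scaling.

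Of 57381 probe sets, 123 controls were left out and 57258 tested. GEO's platform annotation gave 1 gene for 22436, several for 95 and none for 34727. The 17905 genes were all in the RefSeq table of assembly ASM3414082v1, and 2458 have a name.

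Group means were fitted with limma 3.58.1 (R 4.3.3) to all 8 arrays, with 4 residual and 4.27 prior degrees of freedom, and the line fit with 2 and 4.61. Tests were two-sided with Benjamini-Hochberg adjustment over 57258 probe sets, and the threshold for a call was an adjusted p of 0.05. The fits were tested on simulated data. Tables used pandas 2.3.3 and plots matplotlib 3.10.9 in Python 3.11.15. Precision is limited by the number of arrays.

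The genes and the gene lists were chosen with earlier results of these data known, and the families of related genes after the 61 were known. Every gene of the 61 with a name is named, with the 3 unnamed ones of largest difference and those with the lowest and highest red light difference. The other locus numbers were named after their values were seen. Replicate number is the same line in both OsYHB groups, where deviations from group means correlated at 0.145 across probe sets. Between the wild-type groups the correlation was 0.093. It was -0.169 for OsYHB red light with wild-type darkness and -0.172 with wild-type red light. For OsYHB darkness it was 0.003 with wild-type darkness and 0.078 with wild-type red light. A replicate block was also run. Other alternatives were a pseudocount of 16 (the main setting adds none), median centring, quantile normalization and a filter on dim probe sets. Further ones were an intensity trend, averaging of probe sets per gene, only the groups compared, and leaving out each array. Promoter motifs were not analysed here.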

Additional observations from a re-analysis of the deposited data

Results flagged for a closer look

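In 14 of the 61 genes the lines of OsYHB lay on opposite sides of both wild-type red light arrays. Over all genes, 6.3% had line 1 below and line 9 above both, and 3.91% the reverse. Each line has 1 array in red light, so these differences were not tested with replicates. Without either OsYHB dark array the line comparison rests on those single arrays, and LOC4352852 was then called (adjusted p = 0.0181). In 13 of them line 9 was the higher. The difference of line 9 minus line 1 was 4.73 in LOC4352852, 3.88 in LOC4348974, 2.16 in LOC4345988 and 2.03 in CAD8A. It was 1.93 in MADS58, 1.69 in LOC4341416, 1.48 in LOC4332684, 1.01 in MST3 and 1.00 in LOC4337383. It was 0.94 in LOC4332175, 0.91 in LOC4344567, 0.79 in LOC4335831 and 0.61 in LOC4335749. In LOC4335108 line 1 was the higher, at -0.74.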

How the results depend on the processing

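The number of genes met by the rule, 61, was 28 with a pseudocount of 16 and ranged from 43 (without wild-type dark replicate 1) to 105 (without OsYHB dark line 1) when 1 array was left out, with 94 without wild-type red light replicate 2. The 2 genes called lower in OsYHB red light were 0 with only probe sets of mean log2 above 4, and 0 to 3 without 1 array: 0 without any red light array, 1 without either OsYHB dark array. With replicate as a block the count was 2. The 0 genes called between lines became 1 with an intensity trend and 1 with quantile normalization (MADS58), and 0 to 1 without 1 array (LOC4352852 without either OsYHB dark array, which leaves 1 red light array per line, with the spread taken from the wild-type arrays and the prior). Alternatives for the 605 list genes were chosen after seeing the data. For their counts in OsYHB darkness, a line left out means its dark array only. With only the groups compared, 58 were called lower in OsYHB darkness and 35 lower in wild-type red light. Without 1 array, 37 to 138 were called lower and 21 to 44 higher in OsYHB darkness, the fewest without line 9 in both, with 56 lower without line 1. In wild-type red light 21 to 77 were called lower and 21 to 46 higher, with 25 lower and 23 higher without wild-type red light replicate 1 and the fewest without replicate 2. The replicate block ended the calls of COPT5.1 (adjusted p = 0.0718) and EGY2 (0.0599) and no other call. With only the groups compared the adjusted p was 0.102 for COPT5.1, 0.0699 for LOC4328552, 0.0731 for CAD8C, 0.0654 for CML28, 0.0592 for EGY1 and 0.114 for EGY2. Quantile normalization ended the calls of COPT5.1 (0.0714) and EGY2 (0.0539), and median centring that of EGY2 (0.0543). Signs of small red light differences turned. BC1L9 was 0.00226 with quantile normalization, and PHT1-8 was 0.0184 with the mean of probe sets and 0.0249 with quantile normalization. When 1 array was left out, BC1L9 ranged from -0.51 to 0.44 (positive without OsYHB line 1 or wild-type replicate 1), PHT1-8 from -0.31 to 0.28 (positive without the same arrays), CAD8A from -0.69 to 1.35 and MST3 from -0.48 to 0.53 (both negative without OsYHB line 9 or wild-type replicate 2). LOC4332175 ranged from -0.73 to 0.21, LOC4352852 from -3.02 to 1.71 and MADS58 from -1.80 to 0.13, each positive without OsYHB line 1. The arrays named are those in red light, and the cause was not tested.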
